A study of Mus musculus with 14 samples.

Results

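Pou5f1 (also called Oct3/4), Sox2, Klf4 and Myc, the genes of the reprogramming factors, were examined as 4 of 22380 annotated protein-coding mouse genes. Their members in the data were the 56 methylation peaks lying within 2 kb of a gene, of 1063163 peaks in 14 samples. The genes were chosen by name, with their peaks in these samples already known, so which samples had peaks, how many tags these held and where their summits lay are given as a description with no test. Tests were run only within the iPS clones. They concerned the difference between the Aid genotypes, which the choice did not use, and single clones far from the others of their genotype. The latter check drew on tags and summits already known, so its flags are a description. All 56 kept peaks overlapped the gene itself. The nearest peak left out was 2946 bp away, upstream of Klf4, where 7 of the 8 iPS clones and 2 of the 3 ES lines had a peak of 13 to 40 tags at 2.95 to 3.19 kb.

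The peaks came from MBD-seq, which pulls down DNA fragments with a protein domain that binds methylated CpG and sequences them, so tags gather where a stretch rich in CpG is methylated. Induced pluripotent stem (iPS) cells gave 8 samples, 4 Aid+/+ and 4 Aid-/- clones, and were set beside 3 lines of embryonic stem (ES) cells and 3 Aid+/+ cultures of mouse embryonic fibroblasts (MEFs). The study asked whether DNA methylation in iPS cells differs between the Aid genotypes. Each iPS sample was a single clone made from MEFs with retroviruses for Oct3/4, Sox2 and Klf4, to which one for c-Myc was added in some cases, and whether a given clone received c-Myc is not given in the sources used here. All iPS clones carried a Nanog-GFP reporter, grew on gelatin with puromycin and were taken at passage 6, and clones and MEFs shared a mixed C57BL6, DBA and 129S4 background. The Aid+/+ clones were 967B2, 967B4, 979B1 and 979B3 (replicates 1 to 4), and the Aid-/- clones were 979F1, 979F3, 981E1 and 981E4 (replicates 1 to 4). The ES lines were RF8 at passage 19, given as strain 129SV in the labels and as 129S4 in the study's methods, MG1.19 of strain 129Ola and B6 ES of strain C57BL6 (replicates 1 to 3). The labels give culture on gelatin for the ES lines as well. The MEFs were at passage 3, and none of the ES lines or MEFs was described as carrying the retroviruses.

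Oct3/4 is a POU-domain factor that binds DNA together with the HMG-box factor Sox2 at genes of the pluripotent state, Klf4 is a zinc-finger factor that acts with them, and c-Myc is a basic helix-loop-helix factor that promotes growth and proliferation. In pluripotent cells the endogenous Oct3/4 and Sox2 genes are active, whereas integrated retroviral copies of the factors are commonly silenced, in part by DNA methylation. A retroviral copy is a cDNA, so it holds the coding exons joined together and neither introns nor the promoter of the gene. A tag from within an exon of such a copy and a tag from the same exon of the endogenous gene map to the same place, and in these data the source of a tag cannot be told apart.

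The bases around the median summit of each region are shown because the description turns on where the summits lay. A summit is the base with the most overlapping fragments in a peak. Each line gives 30 bases centred on the median summit of the 8 iPS clones, on the strand of the gene and 5′ to 3′, in mouse genome build mm9 (NCBI build 37) with the exons of GENCODE M1. CpG dinucleotides are in capitals, and all 6 stretches lie in coding sequence. Where summits were scattered, the stretch is not that under the summit of each clone. At Myc exon 2, summits ranged over bases 248 to 600 of the coding part, and none lay within the printed stretch. At Klf4 exon 3 they ranged over bases 60 to 719, and most lay outside it.
Pou5f1 exon 1, chr17:35643225-35643254, plus strand: gcataCGagttctgCGgagggatggcatac
Sox2 exon 1, chr3:34549894-34549923, plus strand: CGggcctcaaCGctcaCGgCGCGgcacaga
Klf4 exon 3, chr4:55543523-55543552, minus strand: acctgcagcttcagctatcCGatcCGggcc
Klf4 exon 5, chr4:55541048-55541077, minus strand: CGgccctttcagtgccagaagtgtgacagg
Myc exon 2, chr15:61819575-61819604, plus strand: CGCGggcacagCGtctgctccacctccagc
Myc exon 3, chr15:61821202-61821231, plus strand: CGacaagaggCGgacacacaaCGtcttgga

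In the iPS clones the 50 peaks at the 4 genes formed 7 regions after overlapping peaks of the 14 samples were merged. Each region except one held a peak of all 8 clones. These were Pou5f1 exon 1 (chr17:35642542-35643661), Sox2 exon 1 (chr3:34548945-34550767), Klf4 exon 3 (chr4:55542793-55544124), Klf4 exon 5 (chr4:55540606-55541347), Myc exon 2 (chr15:61818708-61820326) and Myc exon 3 (chr15:61820612-61821692). The exception was a region over Pou5f1 exons 2 to 5 (chr17:35645918-35647344), with a peak in Aid+/+ iPS replicate 2 and in Aid-/- iPS replicate 2. ES and MEF samples had 6 peaks in all at the 4 genes, 5 of them at Myc exon 3 and the other at Klf4 exon 5.

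**Figure D1:**
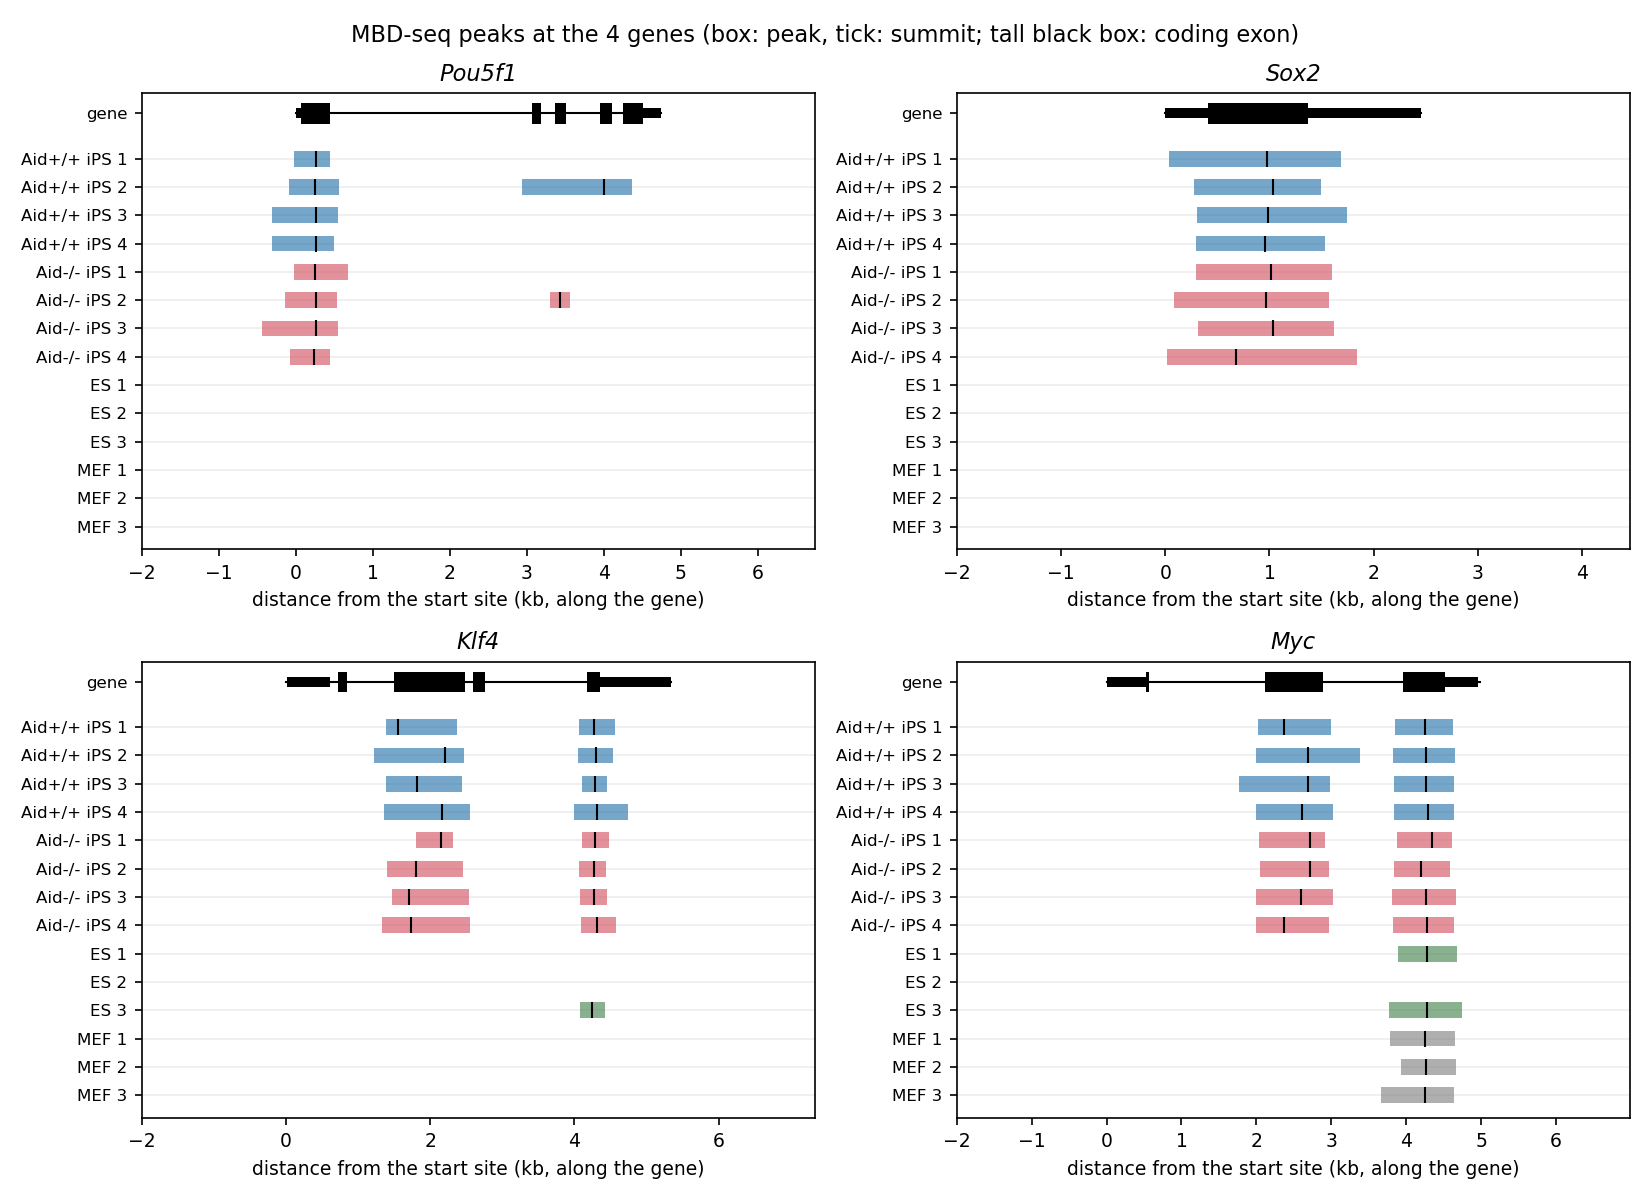
Peaks (boxes) and their summits (ticks) at the 4 genes in the 14 samples, drawn against the distance in kb from the start site of each gene, with exons as black boxes above (tall for coding parts). The 8 iPS clones share peaks over Pou5f1 exon 1, the Sox2 exon, Klf4 exons 3 and 5 and Myc exons 2 and 3, and of these only Klf4 exon 5 (1 ES line) and Myc exon 3 (2 ES lines, 3 MEFs) have a peak in another sample.

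Of the 6 regions with a peak in all 8 iPS clones, 4 had none in any ES or MEF sample, namely Pou5f1 exon 1, Sox2 exon 1, Klf4 exon 3 and Myc exon 2. The same pattern was seen in 234 of the 50635 regions in which every iPS clone had a peak, or 0.462%. Levels are given as tags/M, the tags of a peak per 1000000 tags of the library left after the filter on duplicates. Ranked by the median of tags/M over the clones, these 4 regions stood at ranks 2 (Myc exon 2), 1 (Sox2), 5 (Klf4 exon 3) and 6 (Pou5f1 exon 1) of the 234. Their medians were 27.7, 28.9, 7.63 and 6.91 tags/M, beside 2.22 for the median region with the pattern. The number of regions with the pattern rested on ES replicate 3, which had more peaks than the other ES lines, and was 4297 without it, of which 5 lay at the 4 genes, Klf4 exon 5 being the addition. With peaks of the iPS clones limited to p-values of at most 1e-10, 18 regions remained in the pattern and 3 of them lay at the 4 genes. A missing peak means that the tags did not reach the threshold of the peak caller, which is not the same as an absence of methylation.

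Counted by gene, Sox2 and Pou5f1 were among 5 genes with a peak in every iPS clone and in no ES or MEF sample, of 11294 genes with a peak in every clone (0.0443%). The others were Rpl7a-ps10, Magea5 and Gm16513. Among these, Rpl7a-ps10, a single-exon gene on chromosome 9 annotated as protein-coding, was the only one besides Sox2 and Pou5f1 whose iPS summits all lay in coding sequence, with a median of 3.20 tags/M (1.48 to 5.41). Klf4 and Myc were not in the list because of the ES and MEF peaks at Klf4 exon 5 and Myc exon 3.

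All 50 iPS summits at the 4 genes lay in coding exons (100%), as did the 6 summits in ES and MEF samples. Over all protein-coding genes, 33.6% of 377780 iPS peaks within the same window had their summit in a coding exon (30.7% to 36.5% in single clones). Coding sequence made up 12.1% of the window of Pou5f1, 14.8% of that of Sox2, 15.5% of that of Klf4 and 15.2% of that of Myc. The same share over all protein-coding genes is not given here, so 100% and 33.6% are not set on a like base. The 50 summits repeat the same few regions from clone to clone and are not separate observations. By length, 67.1% of the iPS peaks at the 4 genes was coding sequence, 14.7% untranslated exon, 15.1% intron and 3.1% flanking sequence. The peaks thus ran past the exon ends, and the captured fragments, estimated by the peak caller at 154 to 214 bp, limit how closely a peak edge can follow an exon border.

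Pou5f1, the gene of the POU factor Oct3/4 (chr17:35642982-35647721, plus strand), has 5 coding exons in the transcript used, and exon 1 carried the peak found in every clone. It held 5.47, 11.95, 8.15 and 6.23 tags/M in Aid+/+ iPS replicates 1 to 4 and 3.66, 7.58, 14.4 and 4.63 in Aid-/- iPS replicates 1 to 4 (7.95 ± 2.90 and 7.57 ± 4.86, SD, n = 4 each). The genotypes overlapped, with an Aid-/- clone both highest and lowest. Fold enrichment over the local background was 23.0 to 30.5 over the 8 clones. Summits lay within bases 173 to 201 of the 384 bp coding part of the exon, which was covered to at least 97.9% in every clone. On the 3′ side the peaks ended 8 bp before to 233 bp after the border with intron 1, short of it only in Aid+/+ iPS replicate 1. On the 5′ side the peaks passed the start of the coding sequence by 83 to 503 bp, and they covered 1.0% to 22.0% of the 2 kb upstream of the gene. No ES or MEF sample had a peak in these 2 kb or elsewhere in the gene. The upstream coverage belongs to peaks with summits in exon 1, so it does not show a methylated promoter. By pyrosequencing, the study found the promoter of this gene hypomethylated in iPS cells of both genotypes. It also reports that MBD-seq missed a difference between MEFs and iPS cells at the Nanog promoter that pyrosequencing showed. A missing MEF peak therefore does not show an unmethylated promoter.

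The other exons of Pou5f1 had a peak in only 2 clones. In Aid+/+ iPS replicate 2 a peak of 86 tags (7.40 tags/M, fold enrichment 6.51) covered exons 2 to 4 whole and 42.9% of the coding part of exon 5. In Aid-/- iPS replicate 2 a peak of 12 tags (1.21 tags/M, fold enrichment 6.10) covered exon 3. Both summits lay in coding exons. These exons held 2.3 to 3.77 CpG per 100 bp, beside 3.65 in the coding part of exon 1.

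Sox2, the gene of the HMG-box partner of Oct3/4 (chr3:34548927-34551383, plus strand), is a single exon, so peaks there cannot separate exon from intron. It lies within the non-coding gene Sox2ot, and tags there were assigned to neither transcript. The peak held 72.3, 73.7, 19.6 and 9.65 tags/M in Aid+/+ iPS replicates 1 to 4 and 37.7, 27.8, 9.17 and 29.9 in Aid-/- iPS replicates 1 to 4 (43.8 ± 34.0 and 26.2 ± 12.1, SD, n = 4 each). Both clones of series 967 stood above the rest, and the lowest clones of the 2 genotypes were alike. All 8 peaks covered the whole coding sequence of 957 bp, but 17.7% to 57.7% of the untranslated parts and none of the 2 kb on either side. The coding sequence held 9.40 CpG per 100 bp, the untranslated parts 4.33 and the 2 kb upstream 5.10. In 7 of the 8 clones the summit lay at bases 545 to 622 of the coding sequence, and in Aid-/- iPS replicate 4 at base 268.

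Klf4, the gene of a zinc-finger factor (chr4:55540013-55545347, minus strand), had peaks over exon 3, which holds 985 bp of its 1449 bp coding sequence, and over exon 5. Exon 3 held 6.03, 8.51, 10.7 and 6.75 tags/M in Aid+/+ iPS replicates 1 to 4 and 1.31, 31.3, 3.46 and 9.34 in Aid-/- iPS replicates 1 to 4 (8.01 ± 2.10 and 11.4 ± 13.7, SD, n = 4 each). Aid-/- iPS replicates 1 and 3 lay below all Aid+/+ clones, replicate 2 above them and replicate 4 within their range. Exon 5 held 2.70, 4.04, 3.61 and 2.49 tags/M in the Aid+/+ clones and 1.78, 5.66, 1.5 and 2.09 in the Aid-/- clones, and 1.55 in ES replicate 3, the one other sample with a peak there. The tags of exon 3 were 0.737 to 5.54 times those of exon 5 (median 2.5), with the lowest ratio in Aid-/- iPS replicate 1 and the highest in Aid-/- iPS replicate 2. Summits in exon 3 ranged over bases 60 to 719 of its coding part, whereas those in exon 5 lay at bases 93 to 138.

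Klf4 exons 2 and 4 had no peak in any of the 14 samples, although exon 2 held 9.92 CpG per 100 bp, more than exon 3 (6.60) or exon 5 (4.62). Exon 2 has 121 bp of coding sequence and exon 4 has 165 bp. The 2 kb upstream of Klf4, with 6.70 CpG per 100 bp, had no peak either. At its 3′ end, the exon 3 peak stopped 162 bp before to 78 bp after the border with intron 3, and in 5 of the 8 clones it stopped short of that border. At its 5′ end, the peak ran past the border into intron 2 by 23 to 269 bp in every clone except Aid-/- iPS replicate 1. In that clone it began 308 bp inside the exon.

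Myc, the gene of c-Myc (chr15:61816946-61821929, plus strand), had peaks over exons 2 and 3, which hold all but 30 bp of its coding sequence. Exon 2 held 30.5, 60.0, 28.4 and 17.5 tags/M in Aid+/+ iPS replicates 1 to 4 and 4.03, 27.1, 32.0 and 11.5 in Aid-/- iPS replicates 1 to 4 (34.1 ± 18.2 and 18.7 ± 13.1, SD, n = 4 each). Aid-/- iPS replicates 1 and 4 lay below every Aid+/+ clone and the others within their range. The coding parts of both exons were covered whole in every clone, and the peaks passed the ends of the exon 2 coding part by 74 to 354 bp on the 5′ side and 27 to 493 bp on the 3′ side. No sample had a peak over exon 1 or in the 2 kb upstream. The tags of exon 2 were 1.2 to 3.31 times those of exon 3 (median 1.86).

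The borders between coding exon and intron beside these peaks are shown because an integrated cDNA would lack the intron side. Coding bases are in capitals and intron bases in lower case, on the strand of the gene, 5′ to 3′, in build mm9.
Pou5f1 exon 1 end, chr17:35643414-35643443, plus strand: CCAACTCCCGAGGAGgtaagtgaagggact
Klf4 exon 3 start, chr4:55543841-55543870, minus strand: tccctgttcttgcagCGTTGGCGTGAGGAA
Klf4 exon 3 end, chr4:55542856-55542885, minus strand: CTCTCCATTATCAAGgttagtggggggaag
Myc exon 2 end, chr15:61819819-61819848, plus strand: CCAGCAGCGACTCTGgtaagctaccccatt
Myc exon 3 start, chr15:61820886-61820915, plus strand: cttcctcccttacagAAGAAGAGCAAGAAG
Introns were covered by the iPS peaks to 3.27% to 17.2% of their length in Klf4, 7.21% to 28.5% in Myc and 0.0% to 30% in Pou5f1, the last value being that of Aid+/+ iPS replicate 2.

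Myc exon 3 differed from the other regions in that fibroblasts and ES lines also had peaks there. It held 9.24, 31.7, 13.3 and 10.8 tags/M in Aid+/+ iPS replicates 1 to 4, 3.38, 13.2, 17.6 and 7.94 in Aid-/- iPS replicates 1 to 4, 8.37, 7.42 and 7.14 in MEF replicates 1 to 3, and 2.15 and 5.61 in ES replicates 1 and 3. The iPS range enclosed that of the MEFs, and 1 Aid-/- clone lay below all MEFs. Fold enrichment was 33.5, 34.3 and 28.3 in the MEFs and 35.5 in ES replicate 3, but 10.1 in ES replicate 1 and 8.65 to 11.7 in the iPS clones. The MEFs and the iPS clones did not overlap in this measure. The peak caller takes its background from up to 10 kb around a peak, a window that includes the exon 2 peak of the iPS clones, and the part of that peak in the difference was not tested. Summits lay at bases 240 to 384 of the coding part of the exon in iPS clones, 293 to 315 in MEFs and 327 to 329 in ES lines, so their positions overlapped between iPS clones and MEFs.

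**Figure D2:**
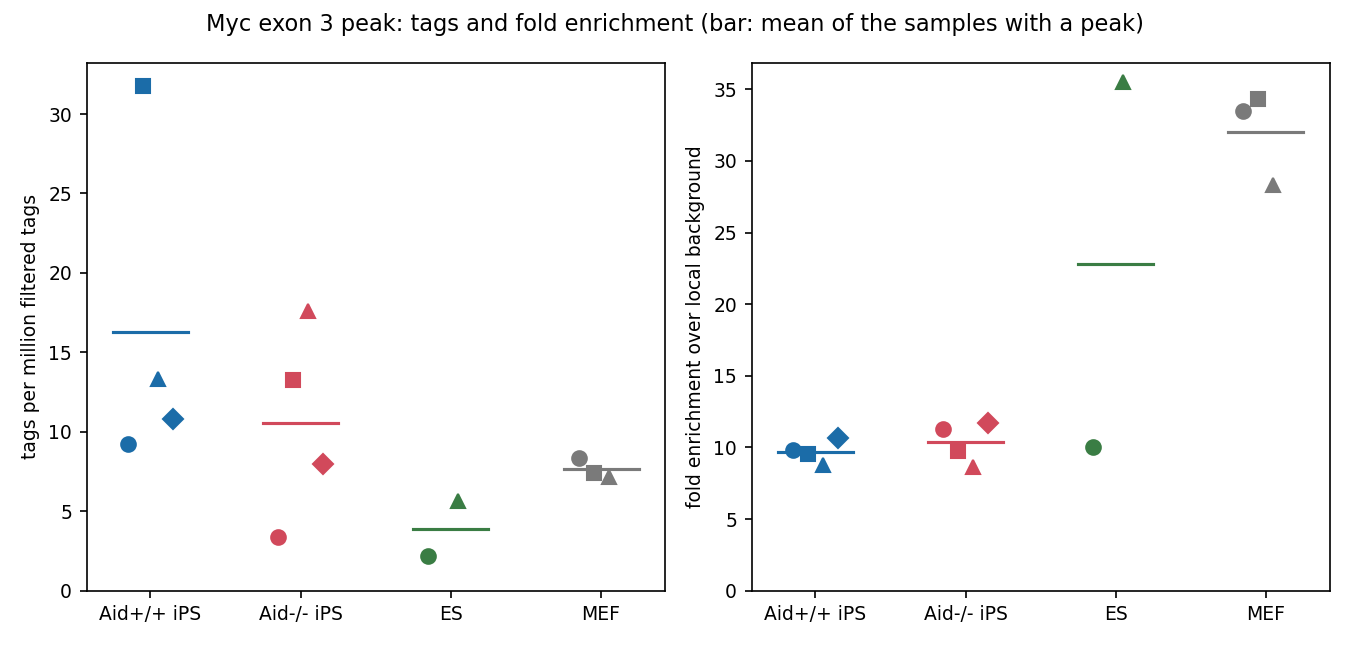
The Myc exon 3 peak in each sample that has one, as tags/M (left) and as fold enrichment over the local background (right), with replicates 1 to 4 as circle, square, triangle and diamond and bars for the mean of the samples with a peak. The MEFs (7.14 to 8.37 tags/M) lie within the iPS range on the left, and at 28.3 to 34.3 they lie above all iPS clones (8.65 to 11.7) on the right.

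The level of the peaks varied between iPS clones more than at most regions. On the scale of log2 tags/M, the SD over the 8 clones was 1.32 at Klf4 exon 3, 1.18 at Myc exon 2, 1.15 at Sox2 exon 1, 0.94 at Myc exon 3, 0.67 at Pou5f1 exon 1 and 0.64 at Klf4 exon 5, and the median over 50635 regions was 0.37. Of these regions, 10 had a larger SD than Klf4 exon 3, 29 than Myc exon 2, 39 than Sox2 and 368 than Myc exon 3, but 4209 than Pou5f1 exon 1 and 5281 than Klf4 exon 5. The highest clone exceeded the lowest 23.9-fold at Klf4 exon 3, 14.9-fold at Myc exon 2, 8.04-fold at Sox2, 9.40-fold at Myc exon 3, 3.95-fold at Pou5f1 exon 1 and 3.77-fold at Klf4 exon 5, beside 2.11-fold at the median region. Much of this rested on Aid-/- iPS replicate 1. Without it, the highest clone exceeded the lowest 9.07-fold at Klf4 exon 3, 5.21-fold at Myc exon 2 and 4.0-fold at Myc exon 3, and 406, 3062 and 5535 regions, respectively, had a larger SD. Without Aid-/- iPS replicate 2, the fold at Klf4 exon 3 was 8.18, with 167 regions of larger SD. Without Aid+/+ iPS replicate 2, the fold was 7.94 at Myc exon 2 and 5.21 at Myc exon 3, with 121 and 2173 regions of larger SD. At Sox2 the fold stayed between 7.63 and 8.04 whichever clone was left out, and at most 153 regions had a larger SD. When tags were scaled to total tags, in which duplicates are kept, the Sox2 fold was 20.8. The number of regions with a larger SD was then 1 for Sox2, 5 for Klf4 exon 3, 57 for Myc exon 2, 893 for Klf4 exon 5, 996 for Myc exon 3 and 20339 for Pou5f1 exon 1.

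The genes did not rank the clones alike. Aid+/+ iPS replicate 2 was highest at Sox2 and at both Myc exons, Aid-/- iPS replicate 2 at both Klf4 exons, and Aid-/- iPS replicate 3 at Pou5f1 exon 1, the same clone being lowest at Sox2 and at Klf4 exon 5. Aid-/- iPS replicate 1 was lowest at Pou5f1 exon 1, Klf4 exon 3 and both Myc exons, but the third highest at Sox2. Summed over the peaks of a gene, the highest clone exceeded the lowest 5.29-fold at Pou5f1, 8.04-fold at Sox2, 12-fold at Klf4 and 12.4-fold at Myc. Without Aid-/- iPS replicate 1 these folds were 7.46 at Klf4 and 4.71 at Myc. Without Aid-/- iPS replicate 2 the fold was 4.64 at Klf4, and without Aid+/+ iPS replicate 2 it was 6.69 at Myc. In fold enrichment of the strongest peak the clones differed at most 1.33-fold at Pou5f1, 1.47-fold at Sox2, 1.39-fold at Klf4 and 1.43-fold at Myc. With no control, the background of this measure came from the same library up to 10 kb around a peak, a window that holds the peak itself. At Sox2 fold enrichment was 13.1 with 1151 tags (Aid+/+ iPS replicate 1) and 13.9 with 61 tags (Aid-/- iPS replicate 3). Whether the background narrowed these folds was not tested.

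**Figure D3:**
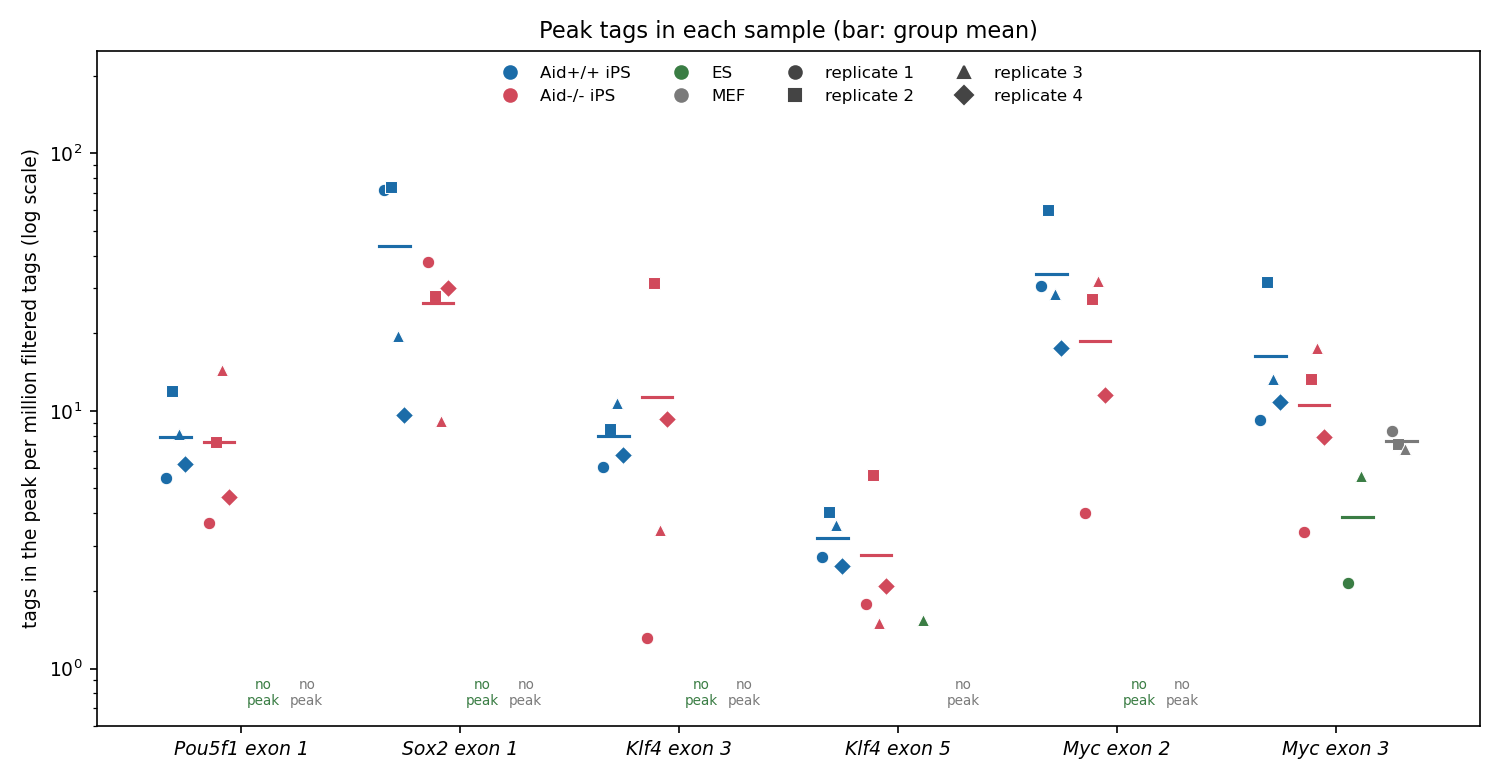
Tags/M (log axis) in the peak of each sample at the 6 regions shared by the iPS clones, with groups by colour, replicates by symbol and bars for the mean of each group with more than 1 peak. The 2 iPS genotypes overlap at every region, and the clones spread most at Klf4 exon 3, from 1.31 to 31.3.

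**Figure D4:**
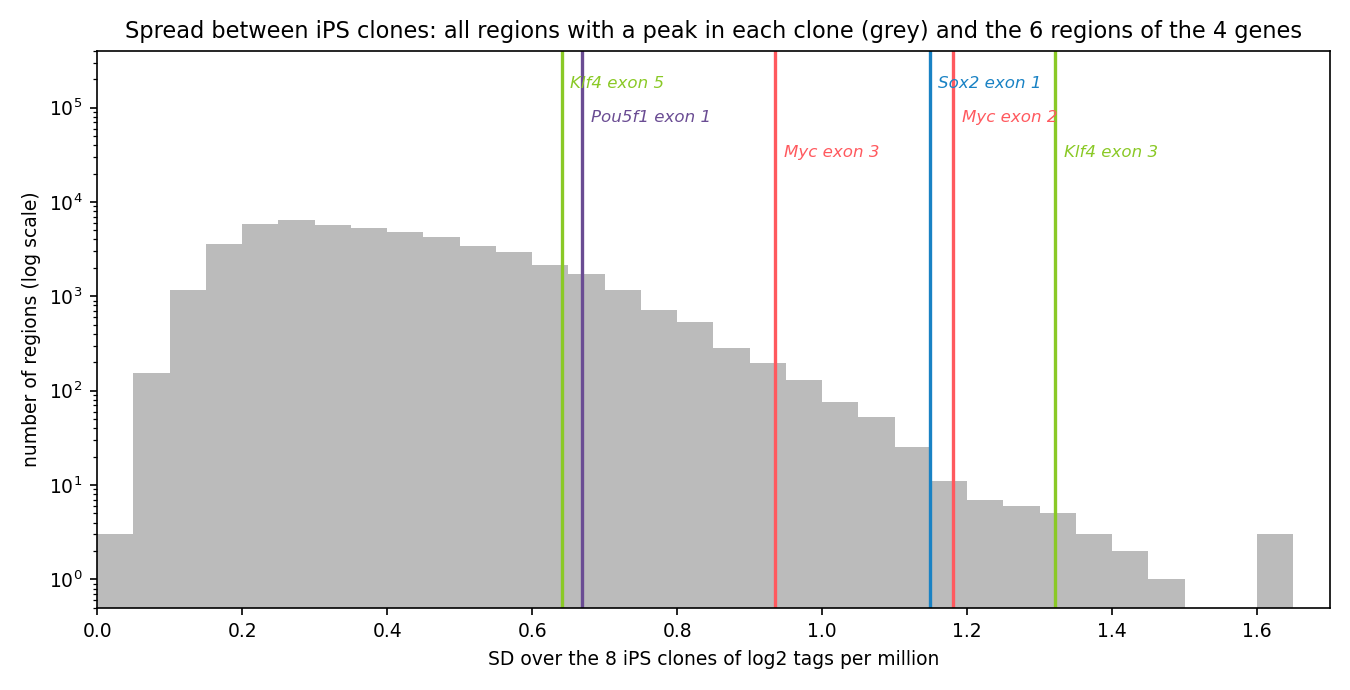
Number of regions (log axis) by the SD of log2 tags/M over the 8 iPS clones, for 50635 regions with a peak in every clone, with coloured lines at the 6 regions of the 4 genes. Klf4 exon 3 (1.32), Myc exon 2 (1.18) and Sox2 (1.15) lie in the right tail, while Klf4 exon 5 (0.64) and Pou5f1 exon 1 (0.67) lie nearer to the bulk.

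Whether loss of Aid changed the tags at the 4 genes was tested with edgeR's quasi-likelihood test over 50901 regions, formed by merging the peaks of the 8 iPS clones alone and kept where every clone had a peak, with Benjamini-Hochberg adjustment. None of the 6 regions passed an adjusted p of 0.05, and 1 region in all did (0.00196%), while 1743 regions had an unadjusted p under 0.05. The log2 change in Aid-/- over Aid+/+ clones was -0.85 ± 0.46 (SE) at Myc exon 2, -0.70 ± 0.56 at Sox2, -0.58 ± 0.40 at Myc exon 3, -0.11 ± 0.38 at Klf4 exon 5, -0.06 ± 0.32 at Pou5f1 exon 1 and 0.65 ± 0.60 at Klf4 exon 3. The unadjusted p in this edgeR fit was 0.0839, 0.228, 0.168, 0.778, 0.855 and 0.302, respectively. None of the 6 had an unadjusted p under 0.05, which does not show that the genotypes were alike. The replicates carried separate clone names, and the p-values measure the spread between them. Whether 981E1 and 981E4 arose independently was not tested here, and no region of the 4 genes was called with either left out. The study reports that clone independence was checked by the integration pattern of retroviral Klf4. Its list of clones alike in that pattern names both, without making plain whether it joins them to each other.

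The 3 clone series were not spread evenly over the genotypes, since series 967 held only Aid+/+ clones, the series of clones 981E1 and 981E4 only Aid-/- clones, and series 979 both. Within series 979 the Sox2 peak held 19.6 and 9.65 tags/M in the Aid+/+ clones and 37.7 and 27.8 in the Aid-/- clones, a log2 change of 1.31 ± 0.23 (SE, adjusted p = 0.000987, edgeR, n = 2 against 2), opposite in sign to the estimate over all clones. In that fit 1733 of 50901 regions were called (3.40%), and no other region of the 4 genes was. Both Aid+/+ clones of series 979 had peak caller run names with a dated prefix, and 36.9 and 35.7 M total tags. Both Aid-/- clones had no such prefix, and 27.1 and 27.2 M. Genotype therefore cannot be told apart from these differences within series 979. With the series as a block in the fit of all 8 clones, the Sox2 change was 1.32 ± 0.50 with an adjusted p of 0.651 in edgeR. That estimate rests on series 979 as well, the only one with both genotypes.

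Nanog, whose promoter drives the reporter, had no peak in any iPS clone or ES line and a peak in 2 of 3 MEF cultures. Libraries held 6.65 to 19.6 M tags after the filter on duplicates (9.63 to 15.9 in Aid+/+ iPS, 6.65 to 11.5 in Aid-/- iPS, 10.2 to 15.5 in ES and 17.5 to 19.6 in MEF) and 33694 to 110943 peaks, the iPS clones having fewer filtered tags than the MEFs but more peaks. The peak lists hold no expression values, and the labelled cell types were not checked further.

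The CpG content of the 6 regions was set against that of 49661 regions with a peak in every iPS clone on annotated chromosomes. Sox2 held 7.95 CpG per 100 bp, and 9 of these regions held more. Klf4 exon 3 held 5.78 (56 regions with more), Myc exon 2 held 4.82 (213 regions) and Pou5f1 exon 1 held 3.21 (4955 regions). Myc exon 3, with 2.87, and Klf4 exon 5, with 1.75, were nearer to the median of 2.34. The 4 regions without ES or MEF peaks were thus the 4 with the most CpG of the 6.

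The pattern was looked for in a pair of gene lists that were written with earlier results of these data known. Of 48 paralogs of the factors found in the annotation (POU, SOX, KLF and MYC family genes), 23 had a peak in all 8 iPS clones. None of these lacked peaks in all ES and MEF samples. Of the 1112 iPS summits at the paralogs 27.5% were coding, and Sox5 alone gave 534 summits, 26 of them coding. The paralog share thus leans on that gene. Of 18 pluripotency genes that were not introduced, among them Nanog, 4 had a peak in all 8 clones and none of these lacked ES and MEF peaks, with 39.2% of 204 summits coding. These shares stand beside 33.6% over all protein-coding genes and 100% at the 4 factor genes. Of all genes with a peak in every clone 0.0443% had the pattern, so counts of 0 in lists of this size set neither list apart. With peaks in some iPS clones allowed, 11 of the 48 paralogs had iPS peaks and none in ES or MEF samples, each in 1 to 4 clones, among them Pou3f1, Sox11 and Sox17 in 4 clones each. The same held for 2 of the 18 pluripotency genes, Utf1 in 3 clones and Nr0b1 in 1. The share of all genes with this looser pattern was not counted, so these counts are a description only. Pou3f1, Sox11, Sox17, Utf1 and Nr0b1 were named after their values were seen.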

How the data were processed

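MBD-seq peak lists of 14 samples, 1 per sample and with no pooling, were used. According to the methods, the authors mapped reads to mm9 with BWA 0.5.9rc1 and called peaks with MACS; per the file headers the version was 1.4.1 or 1.4.0rc2, with no control, a p-value cutoff of 1.00e-05, a tag size of 75 bp and at most 2 tags per position. The deposited lists give each peak's count of tags, a score (-10 times log10 of p) and the fold enrichment, a ratio to local background. Tags were scaled to 1000000 filtered tags of the header (tags/M).

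Peaks of the samples were merged where they overlapped by 1 bp or more. Exons came from the GENCODE M1 transcript with the longest coding sequence. Summits were classed as coding exon, untranslated exon, intron or flank. Tags in merged regions with a peak of all 8 iPS clones were tested with edgeR 4.0.16 (R 4.3.3) with TMM normalisation, no filter and Benjamini-Hochberg adjustment. Depth limits small changes, as the tested regions held 44 to 80 tags in the median, depending on the clone. The test and the merging were checked on simulated data. A region that loses its peak in any clone leaves the test. DESeq2 1.42.0, limma 3.58.1 on log2 fold enrichment, other scalings, windows, thresholds and left-out samples were tried as alternatives.

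Groups were taken from the sample titles and characteristics. The 4 genes and the gene lists were chosen with earlier results of these data known. The genes named besides these 4 were those with a peak in all 8 iPS clones and no ES or MEF sample, with Nanog for the reporter; Magea5 and Gm16513 were added after their values were seen. A check of the targeted gene is not reported here. No pair of samples of a group shared more than 1 identical peak.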

Additional observations from a re-analysis of the deposited data

Results flagged for a closer look

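In 48 sets of 4 clones (6 regions and 1 genotype each, in tags/M, fold enrichment, peak length and summit base), 2 values stood apart from the other clones by the Dixon test, and chance gives about 1 in 20. Both concerned Klf4 exon 5 in Aid-/- clones. The peaks were known when the genes were chosen, so both flags are a description. Aid-/- iPS replicate 2 held 5.66 tags/M, the others 1.5 to 2.09, and the same clone was highest at Klf4 exon 3. The peak of Aid-/- iPS replicate 4 was 485 bp long, the others 373 to 383 bp.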

How the results depend on the processing

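No region of the 4 genes was called between genotypes under any alternative except 1, Sox2, in series 979 alone, where the change turned to 1.31 (1.32 with the series as a block). In that series genotype cannot be told apart from the form of the run name and total tags. Over all regions, 24 were called by DESeq2 and 0 by limma, with peak length as an offset and with the series block. Series 979 alone gave 1733, and leaving out 1 clone gave 0 to 11 (11 without Aid+/+ iPS replicate 1). Estimates that changed sign without being called were 0.090 (Myc exon 3) and 0.0011 (Pou5f1 exon 1) with limma on fold enrichment. For Klf4 exon 5 they were 0.17 with peak length as an offset, 0.45 with the series block and 0.43 in series 979 alone. Among clones with like run names the estimate was 0.11 at Klf4 exon 5, 1.10 at Klf4 exon 3 and -0.16 at Pou5f1 exon 1. In those clones it was -1.30 at Sox2, -1.21 at Myc exon 2 and -0.27 at Myc exon 3. The Sox2 estimate there was opposite in sign to that of series 979. With 1 clone left out, Pou5f1 exon 1 ranged from -0.45 to 0.18, Klf4 exon 5 from -0.75 to 0.10 and Klf4 exon 3 from -0.61 to 1.03, while Sox2 (-1.04 to -0.20), Myc exon 2 (-1.15 to -0.49) and Myc exon 3 (-0.83 to -0.069) kept their sign, and no region was called. The clones with like run names had lists from MACS 1.4.1 and run names without a dated prefix. What the prefix stands for is not given. Aid+/+ iPS replicates 2 to 4 and no Aid-/- clone had it, and the list of Aid-/- iPS replicate 3 came from version 1.4.0rc2. The run-name comparison has 1 Aid+/+ clone, assumed to vary like the others, so genotype and that clone cannot be told apart in it. Why signs changed was not tested. No paired analysis was possible because the replicate numbers were given in accession order and pair no samples.

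The 50 iPS peaks became 57 with a 5 kb flank, whose added summits were not classed, and 44 at p-values of at most 1e-10, and 100% of summits were coding at that threshold, with no flank and with the coding exons of any transcript. Regions with the iPS pattern numbered 18 at that threshold and 236 to 4297 with 1 sample left out (4297 without ES replicate 3, 383 without Aid+/+ iPS replicate 1 and 394 without Aid-/- iPS replicate 4). The highest clone over the lowest at Sox2 was 20.8-fold when scaled to total tags. In fold enrichment, whose background comes from the same library around the peak, the folds were 1.33 at Pou5f1, 1.47 at Sox2, 1.39 at Klf4 and 1.43 at Myc. With 1 clone left out the folds in tags/M were 3.94 to 5.29 at Pou5f1, 7.63 to 8.04 at Sox2, 4.64 to 12 at Klf4 and 4.71 to 12.4 at Myc. The run-name comparison, leaving out clones from these folds and the settings for the spread between clones were chosen after seeing the data.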
